A study of Mus musculus with 10 samples.

Results

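The 10 genes described here are targets of Wnt/beta-catenin signalling in the liver: Axin2, Nkd1, Notum, Rnf43, Znrf3, Lgr5, Tcf7, Tbx3, Sp5 and Lect2. They were chosen by name, with earlier results of these data known, and each matched 1 row of the feature list, so they are 10 of the 31053 genes counted. They were measured in mouse tissue by Visium, in which barcoded spots on a slide capture RNA and unique molecular identifiers (UMIs) are counted per gene and spot. Each spot covers several cells, possibly of different types. Of the 10 sections, 4 were cut next to each other from NEJ146, and NEJ634, NEJ638, NEJ654, NEJ677, NEJ687 and NEJ723 gave 1 each, which makes 7 tissues. The labels call every sample hepatoblastoma, whereas the study's text names NEJ146, NEJ634, NEJ687 and NEJ723 as tumours and speaks of healthy livers without naming them. NEJ638, NEJ654 and NEJ677, the remaining tissues, are described here as a set for their liver zonation, and that they are the healthy livers is inferred. The tumour model is the ABC-Myc mouse (Alb-Cre+/wt::CAG-MYC+/wt on C57BL/6J), in which Cre from the albumin promoter acts in cells of the hepatocyte lineage and removes a floxed stop before a human MYC transgene that a CAG promoter then drives. Healthy tissue in the study came from littermates that lacked Cre, the transgene or both. The genotype and age of the mouse behind each section are not given in the sources used here, and the matrices have no separate row for human MYC. Because the labels give no tumour and liver groups, tissues are compared here by description, and tests were run only between zones within tissues.

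In Wnt signalling, a secreted Wnt ligand binds Frizzled and Lrp5 or Lrp6 on the cell surface, the complex that degrades beta-catenin is blocked, and beta-catenin enters the nucleus and acts with TCF/LEF factors on target genes. R-spondins, through Lgr receptors, remove the ubiquitin ligases Rnf43 and Znrf3 and so raise the number of Frizzled receptors. In the adult liver, endothelial cells of the central vein secrete Wnt2, Wnt9b and Rspo3, and hepatocytes around that vein use the pathway to hold the pericentral programme, of which glutamine synthetase (Glul) is the best known gene.

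Sequence before the start of transcription was at hand for 6 of the 10 genes (RefSeq, GRCm38.p6). The letters CTTTGA, the core of the TCF/LEF site, were searched on both strands in the 250 bases before each start. They were found in 4544 of 32851 such windows (13.8%), and in 2 of the 8 windows of these 6 genes. Those windows belong to Sp5, a transcription factor gene, with 2 matches that begin 204 and 104 bases before the start, and to Lect2, with 1 match (read as TCAAAG) 31 bases before it. They are shown with Axin2 and Nkd1, feedback inhibitors whose windows held no match. These 4 genes were picked because they include Sp5, with the largest fold change between zones described below, and Nkd1, with a shallower gradient. Axin2, with no match, had a larger fold change in that fit than Lect2. Windows of Rnf43 and Tcf7 held no match either and are not shown. Whether matches go with the gradients was not tested. The Nkd1 window precedes a RefSeq start that lies inside the GENCODE gene. Each window shown lies outside annotated exons, and capitals mark the match, which is a run of letters and not a known site.
Sp5 (chr2:70474673-70474922, plus strand): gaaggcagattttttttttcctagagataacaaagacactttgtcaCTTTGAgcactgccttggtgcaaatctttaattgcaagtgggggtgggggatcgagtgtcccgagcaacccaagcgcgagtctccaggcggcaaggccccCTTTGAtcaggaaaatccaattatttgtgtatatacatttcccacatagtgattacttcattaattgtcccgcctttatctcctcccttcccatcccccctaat
Lect2 (chr13:56548539-56548788, minus strand): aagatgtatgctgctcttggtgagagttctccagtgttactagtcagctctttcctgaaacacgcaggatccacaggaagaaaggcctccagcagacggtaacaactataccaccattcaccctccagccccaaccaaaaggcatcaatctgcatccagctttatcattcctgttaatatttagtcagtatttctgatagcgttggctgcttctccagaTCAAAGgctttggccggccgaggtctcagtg
Axin2 (chr11:108920099-108920348, plus strand): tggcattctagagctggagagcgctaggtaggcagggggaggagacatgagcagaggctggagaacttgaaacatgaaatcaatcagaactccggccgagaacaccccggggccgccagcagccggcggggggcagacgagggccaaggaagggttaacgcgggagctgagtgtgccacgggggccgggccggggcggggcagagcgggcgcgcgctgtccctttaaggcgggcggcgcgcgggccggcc
Nkd1 (chr8:88527383-88527632, plus strand): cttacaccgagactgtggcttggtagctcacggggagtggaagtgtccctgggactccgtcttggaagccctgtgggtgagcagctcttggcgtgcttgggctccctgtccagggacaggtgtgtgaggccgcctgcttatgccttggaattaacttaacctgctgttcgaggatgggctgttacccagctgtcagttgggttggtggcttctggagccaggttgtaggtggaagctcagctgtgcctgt

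Sections held 61627315 to 117556249 UMIs, with 1890 to 4878 tissue spots and medians of 12133.5 to 28926.5 UMIs per tissue spot. NEJ146 differed from the other tissues in its label for the RNA (total against polyadenylated), in its software and in its mitochondrial share of UMIs (6.78% to 7.22% against 2.46% to 3.86%), so its batch cannot be told apart from its tissue. The summed level of hepatocyte markers (Alb, Apoa1, Ttr and Tat) was 77219 to 110671 UMIs per 1000000 UMIs (CPM) in NEJ638, NEJ654 and NEJ677 and 13234 to 27682 CPM in the other sections. Tumour markers (Afp, Igf2, Dlk1 and Gpc3) summed to 4.61 to 14.97 CPM in those 3 tissues and to 1654 to 4630 CPM in the others, and no gene of any marker list was at 0 in any section. Spots outside the tissue call also held RNA. In the tissues other than NEJ146, 57.0% to 93.2% of a section's UMIs lay over tissue. With 50 or more UMIs on tissue, a member's CPM off tissue was 0.491 to 1.90 times its CPM on tissue. Where that RNA came from was not tested, so how sharply any zone can be resolved is not known.

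Levels of the feedback inhibitors differed widely between tissues. All values that follow are CPM over tissue spots, with the mean ± SD over its 4 adjacent sections for NEJ146 and a 95% Poisson interval, which covers counting error only, where 1 section stands alone. Axin2 (chr11:108920349-108950783), a scaffold of the complex that degrades beta-catenin, was at 5.24 CPM in NEJ638 (4.63 to 5.90), 8.07 in NEJ654 (7.24 to 8.97) and 3.23 in NEJ677 (2.69 to 3.85). In the other tissues Axin2 was at 1.74 ± 0.0752 CPM in NEJ146 (SD, n = 4), 1.66 in NEJ634, 0.749 in NEJ687 and 0.0917 in NEJ723, where 4 UMIs were counted. NEJ638, NEJ654 and NEJ677 were thus above the rest, and NEJ146 and NEJ634 did not differ beyond their ranges. Notum (chr11:120653788-120661175), a secreted enzyme that strips the lipid from Wnt ligands, had 40.1, 46.2 and 29.1 CPM in NEJ638, NEJ654 and NEJ677. It was at 5.86 ± 0.66 CPM in NEJ146 (SD, n = 4), 2.71 in NEJ634, 1.60 in NEJ687 and 0.321 in NEJ723. For Notum no neighbouring tissues in that order overlapped, and the lowest of the 3 tissues was 4.97 times the highest of the other 4. Nkd1 (chr8:88521354-88594884), an inhibitor that binds Dishevelled, had 6.37, 6.59 and 5.50 CPM in NEJ638, NEJ654 and NEJ677, which overlapped. It was at 3.54 CPM in NEJ634, 2.71 ± 0.25 in NEJ146 (SD, n = 4), 2.63 in NEJ687 and 0.710 in NEJ723. The gap between the 3 tissues and the others was smaller for Nkd1 than for Notum, with a ratio of 1.55 between the lowest and the highest.

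The related ubiquitin ligases Rnf43 and Znrf3, which clear Frizzled from the cell surface, had different orders. Rnf43 (chr11:87662722-87735539) was at 24.5 CPM in NEJ638, 13.4 in NEJ654 and 7.51 in NEJ677, against 3.57 in NEJ634. NEJ723 had 2.34 CPM, NEJ687 2.32 CPM and NEJ146 1.995 ± 0.33 CPM (SD, n = 4). These last 3 overlapped. Znrf3 (chr11:5276324-5444847) had 7.82, 6.14 and 4.81 CPM in NEJ638, NEJ654 and NEJ677 and at 9.02 ± 0.783 in NEJ146 (SD, n = 4), 13.1 in NEJ634, 14.4 in NEJ687 and 17.7 in NEJ723. Znrf3 was therefore highest in NEJ723, the tissue in which Axin2, Nkd1, Notum, Lgr5, Tbx3, Sp5 and Lect2 were at their lowest. Its lowest value in the 4 tissues was 1.15 times its highest in the other 3, although the ranges of NEJ146 and NEJ638 overlapped.

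Lgr5 (chr10:115450311-115587780), an R-spondin receptor, was at 7.39 CPM in NEJ638, 5.32 in NEJ654 and 2.11 in NEJ677. NEJ634 was level with the last of these at 2.14 CPM, and NEJ146 (1.395 ± 0.0942, SD, n = 4), NEJ687 (0.784) and NEJ723 (0.0687, from 3 UMIs) were lower. The transcription factor genes came next. Tbx3 (chr5:119670669-119684724), a T-box repressor, had 21.1, 26.5 and 9.80 CPM in NEJ638, NEJ654 and NEJ677. It was at 2.92 ± 0.395 CPM in NEJ146 (SD, n = 4), 2.03 in NEJ634, 1.85 in NEJ687 and 0.0458 in NEJ723, from 2 UMIs. Sp5 (chr2:70474923-70477729), whose window held 2 copies of the core letters, had 4.65, 6.75 and 2.44 CPM in NEJ638, NEJ654 and NEJ677. It was at 0.457 ± 0.11 CPM in NEJ146 (SD, n = 4), 0.212 in NEJ634 (12 UMIs) and 0.0697 in NEJ687 (4 UMIs). In NEJ723 no Sp5 UMI was counted. The level of 3 UMIs there is 0.0687 CPM, and the 95% Poisson interval reached 0.0845 CPM. The 3 tissues again did not overlap with the others for Tbx3 or Sp5.

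Tcf7 (chr11:52252371-52283014) encodes a TCF factor that is itself a target and is also expressed by T cells. It had 2.58, 2.17 and 2.14 CPM in NEJ638, NEJ654 and NEJ677, and at 1.52 in NEJ634, 1.15 in NEJ723, 0.863 ± 0.058 in NEJ146 (SD, n = 4) and 0.662 in NEJ687. Every neighbouring pair in this order overlapped. The 8 T cell markers were all detected in every section. They summed to 5.14 to 6.94 CPM in NEJ638, NEJ654 and NEJ677 and to 9.06 to 24.7 CPM elsewhere, the reverse of Tcf7 between these sets. Among the other tissues NEJ634 was highest for both, with a T cell sum of 24.7 CPM. The part of T cells in the Tcf7 level was not tested. Lect2 (chr13:56542464-56548502), a hepatokine and the most abundant of the 10 in UMIs, was at 432 CPM in NEJ638, 377 in NEJ654 and 209 in NEJ677. It was at 48.8 CPM in NEJ634, 32.9 ± 2.5 in NEJ146 (SD, n = 4), 23.0 in NEJ687 and 1.90 in NEJ723 (1.51 to 2.36). For Lect2 no neighbouring tissues overlapped. A sum over spots cannot tell fewer cells of a type from less RNA per cell.

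**Figure D1:**
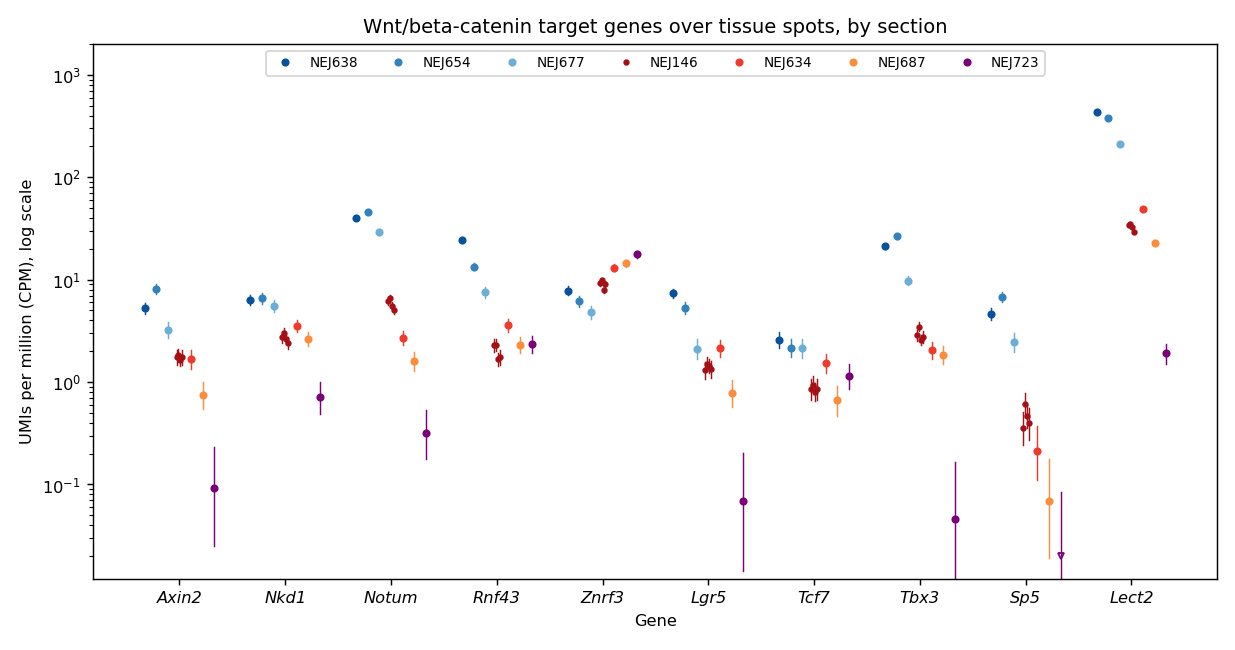
CPM over tissue spots (log scale) of each gene in each section, with 95% Poisson intervals as bars. The small dots are the 4 NEJ146 sections, the open triangle marks Sp5 in NEJ723 with 0 UMIs, and the NEJ723 points stand lowest for 7 genes and highest for Znrf3.

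Over the 10 genes, 8 had NEJ638, NEJ654 and NEJ677 as their 3 highest tissues, the exceptions being Znrf3 and Lgr5. The same order held for 2064 of 12648 genes that averaged 1 CPM or more (16.3%). The reverse order, with those 3 tissues lowest, held for Znrf3 alone among the members and for 5325 of the 12648 genes (42.1%). These 8 genes were not equally separated: the ratio of the lowest of the 3 tissues to the highest of the other 4 ran from 1.41 for Tcf7 to 5.35 for Sp5. No test between tissues was made, since the labels do not divide them. With a mean of at least 5 CPM, 5 members were left and 4 of them (Notum, Rnf43, Tbx3 and Lect2) kept the order, as did 1686 of 9898 genes (17.0%).

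The next question was where within a section the targets lay. Tissue spots were ranked by an index, the level of 5 pericentral genes (Glul, Cyp2e1, Cyp1a2, Oat and Slc1a2) minus that of 5 periportal genes (Cyp2f2, Hal, Hsd17b13, Ass1 and Pck1), and split into 3 zones of equal size. None of the 10 targets is in the index, and index genes were left out of the fit. The pericentral genes of the index belong to the programme that the pathway holds, so the index is not independent of the pathway. In NEJ638, NEJ654 and NEJ677 all 10 targets passed the filter on low counts and all 10 rose from the periportal to the pericentral zone (edgeR quasi-likelihood test with tissue as a term, adjusted p under 0.05). The background was 10.9% of 12750 genes higher and 11.2% lower. The median log2 fold change of the 10 was 1.605, and that of all genes tested was 0.00151.

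Sp5 had the largest log2 fold change of the 10 in the fit. Its pericentral and periportal levels were 9.33 and 1.64 CPM in NEJ638, 13.2 and 2.64 CPM in NEJ654, and 5.97 and 0.596 CPM in NEJ677. Its log2 fold change was 2.51 ± 0.18 (SE; adjusted p = 9.59e-09, edgeR). Lgr5 and Axin2 followed with log2 fold changes of 2.20 ± 0.16 (SE; adjusted p = 1.45e-08, edgeR) and 2.10 ± 0.19 (SE; adjusted p = 2.05e-07, edgeR). Lgr5 stood at 13.0 against 2.90 CPM in NEJ638, at 9.72 against 2.02 in NEJ654 and at 4.57 against 0.894 in NEJ677. Axin2 stood at 9.07 against 1.45 CPM, at 14 against 3.96 and at 6.78 against 1.42 in the same tissues. By single tissue, Axin2 had a larger ratio than Sp5 in NEJ638 (6.27 against 5.70). In none of these tissues did the counting interval of the ratio reach 1 for Sp5, Lgr5 or Axin2. Lect2 (log2 fold change 1.96 ± 0.09, SE; adjusted p = 2.63e-11) and Tbx3 (1.95 ± 0.08; adjusted p = 6e-12) formed a middle group in the edgeR fit. Lect2 went from 194 to 686 CPM in NEJ638, from 180 to 596 in NEJ654 and from 69.6 to 395 in NEJ677.

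The remaining inhibitors had shallower gradients. Rnf43, Notum and Nkd1 had log2 fold changes of 1.26, 1.18 and 1.12, with adjusted p of 2.57e-09, 9.65e-10 and 4.26e-06 in edgeR. Notum, for example, was still at 22.7, 30.6 and 17.1 CPM in the periportal zone of NEJ638, NEJ654 and NEJ677, against 57.1, 61.6 and 44.0 CPM in the pericentral zone. Tcf7 (0.93 ± 0.22, SE; adjusted p = 0.00498, edgeR) and Znrf3 (0.70 ± 0.12; adjusted p = 0.000322) were the shallowest. In NEJ654 the Tcf7 ratio of 1.34 had an interval of 0.795 to 2.30. T cell markers summed to 4.10 pericentral against 6.61 CPM periportal in NEJ638, 6.78 against 7.65 in NEJ654 and 6.85 in both zones of NEJ677. Endothelial markers (Pecam1, Cdh5, Kdr, Lyve1, Stab2 and Clec4g) summed to 164 to 192 CPM periportal and 173 to 207 CPM pericentral. Hepatocyte markers were lower in the pericentral zone, at 82780 against 101478 CPM in NEJ638, 90941 against 130138 in NEJ654 and 63574 against 88203 in NEJ677. The part of these lists was not tested. Tcf7 lost its call with DESeq2 and without NEJ638, and without the tissue term 1 of the 10 genes (Nkd1) passed, with the median log2 fold change of the 10 at 1.569.

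**Figure D2:**
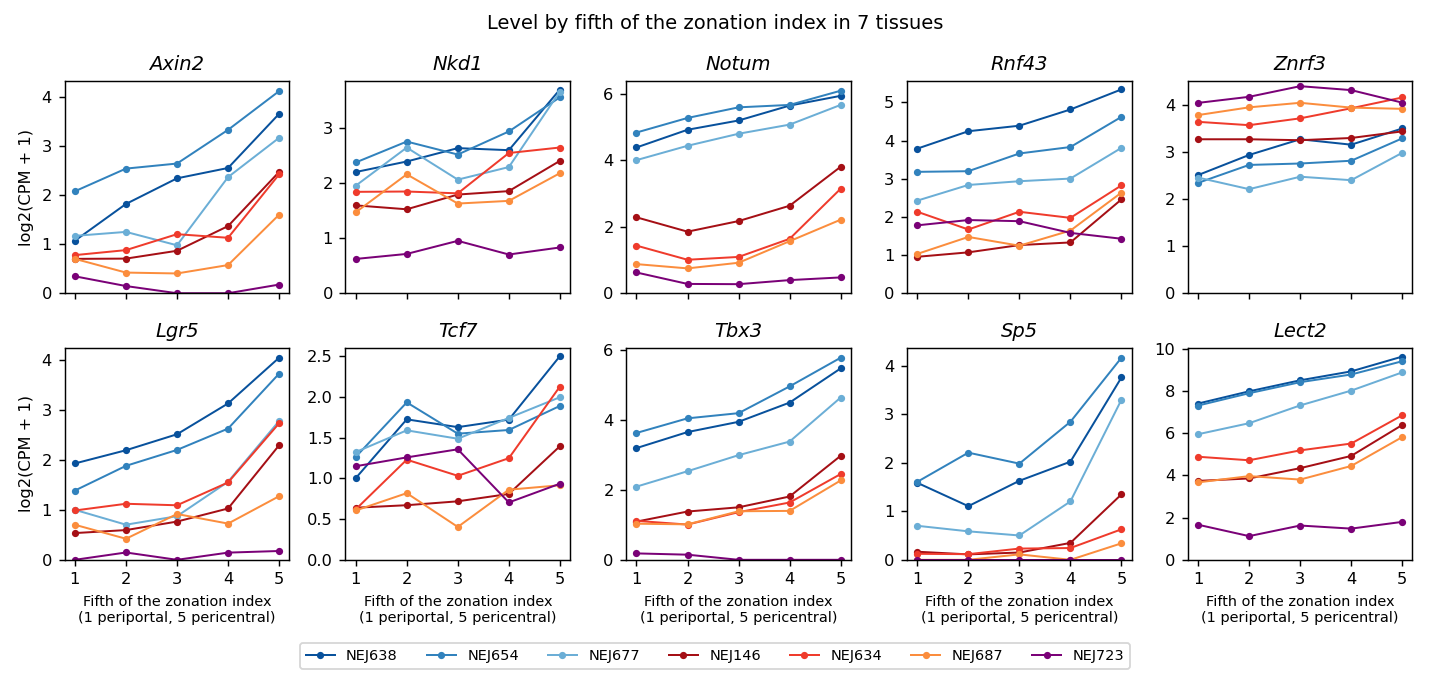
Level of each gene, as log2(CPM + 1), over 5 equal bins of tissue spots ranked by the zonation index, 1 line per tissue. In the blue tissues (NEJ638, NEJ654 and NEJ677) every gene is higher in bin 5 than in bin 1, and the NEJ723 line stays near the bottom except for Znrf3, Rnf43 and Tcf7.

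The same index was then applied to NEJ146, NEJ634, NEJ687 and NEJ723, where the pericentral genes together were at 81.4 to 538 CPM against 4185 to 6280 CPM in the other 3. In the former, zone names give only a spot's rank within its section. Their pericentral zones held the pericentral genes at 873, 394, 398 and 145 CPM, in the order named. Periportal genes were at 1676, 1101, 1950 and 1261 CPM in the same zones. The pericentral genes were thus below their level in the periportal zones of NEJ638, NEJ654 and NEJ677 (1717, 2546 and 1361 CPM). Of the 9 targets that passed the filter in NEJ146, NEJ634, NEJ687 and NEJ723, 6 rose with the pericentral genes: Axin2, Nkd1, Notum, Lgr5, Tbx3 and Lect2. The background was 2.52% of 13825 genes higher and 1.53% lower. Sp5 did not pass the filter. The median log2 fold change of the 9 was 1.64, against -0.00213 for all genes tested. Log2 fold changes were 2.17 ± 0.26 for Axin2 (SE; adjusted p = 0.00183, edgeR), 2.13 ± 0.23 for Lgr5 (adjusted p = 0.00107) and 1.85 ± 0.15 for Lect2 (adjusted p = 0.000152). For Tbx3, Notum and Nkd1 they were 1.74, 1.64 and 0.74, with adjusted p of 0.0017, 0.000574 and 0.036 in edgeR. Nkd1 lost its call with DESeq2 (adjusted p = 0.064) and, in edgeR, without NEJ146 (adjusted p = 0.174) or without NEJ634 (adjusted p = 0.21), and its ratio in NEJ687 was 1.12 (0.757 to 1.66). Rnf43 (1.097 ± 0.286, SE; adjusted p = 0.0548), Tcf7 (0.78 ± 0.28; adjusted p = 0.14) and Znrf3 (0.14 ± 0.08; adjusted p = 0.40) did not pass in edgeR.

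The tissues behind this fit were not alike. In NEJ146 Axin2 was at 3.46 CPM in the pericentral and 0.592 in the periportal zone, a ratio of 5.85 (4.56 to 7.59), Lect2 had a ratio of 5.14 (4.87 to 5.43) and Notum one of 3.06 (2.74 to 3.42). In NEJ634 the ratio was 4.45 for Axin2 (2.46 to 8.63), 3.23 for Lect2 (2.93 to 3.58) and 4.18 for Notum (2.67 to 6.77). In NEJ687 it was 2.98 for Axin2 (1.32 to 7.60), 3.12 for Lect2 (2.69 to 3.63) and 4.74 for Notum (2.47 to 10.0). In NEJ638, NEJ654 and NEJ677 the ratios were 6.27, 3.53 and 4.79 for Axin2, 3.53, 3.31 and 5.68 for Lect2, and 2.52, 2.01 and 2.58 for Notum. The Axin2 and Lect2 ratios of the 2 sets of tissues overlapped, and each Notum ratio in NEJ146, NEJ634 and NEJ687 was above the highest of the other set. The counting interval of that highest ratio, in NEJ677 (2.21 to 3.02), overlapped those of NEJ146, NEJ634 and NEJ687. NEJ723 stood apart, and its zones rest on few counts of the pericentral index genes. These genes had 329 UMIs in its periportal and 2015 in its pericentral zone, over 738 spots each. In NEJ638 they had 27272 and 139975 UMIs. How well the zones of NEJ723 place spots was not tested. In NEJ723 Lect2 was at 1.94 CPM pericentral and 1.85 periportal, from 27 and 25 UMIs, a ratio of 1.05 (0.586 to 1.89). Rnf43 had a ratio of 0.604 in NEJ723 (0.343 to 1.04), from 23 and 37 UMIs, and Axin2, Notum, Lgr5 and Tbx3 had too few UMIs there (2 to 11) for a ratio to be read. Sp5, outside the fit, had 148 UMIs in the pericentral and 14 in the periportal zone of NEJ146, a ratio of 9.64 (5.57 to 18.1). Znrf3 was at 9.58 and 8.74 CPM in the 2 zones of NEJ146, at 16.2 and 11.01 in NEJ634, at 14.5 and 14.2 in NEJ687 and at 17.0 and 16.3 in NEJ723.

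Tumour markers did not vanish where the targets were high. Their sum was 2433 CPM in the pericentral and 1791 in the periportal zone of NEJ146, 4089 and 4842 in NEJ634, 4820 and 4288 in NEJ687, and 3786 and 3837 in NEJ723. Hepatocyte markers summed to 18290 and 17960 CPM in those zones of NEJ146, 22424 and 31965 in NEJ634, and 20791 and 21032 in NEJ687. Stromal markers were higher in the pericentral zone of all 4 tissues, at 606 against 318 CPM in NEJ146, 1319 against 914 in NEJ634, 355 against 284 in NEJ687 and 305 against 258 in NEJ723. Bile duct markers were at 162 against 135 CPM in NEJ146, 677 against 377 in NEJ634 and 44.8 against 118 in NEJ687. Erythroid markers (haemoglobin genes and Alas2) were at 8467 against 9249 CPM in NEJ146, 1336 against 695 in NEJ634 and 9335 against 6526 in NEJ687. Neutrophil markers (Camp, Ngp, Ltf and S100a8) were at 199.6 against 145.5 CPM in NEJ146, 457 against 337 in NEJ634 and 670.5 against 548 in NEJ687, but at 219.9 against 251 in NEJ723. Endothelial markers were at 139 against 129 CPM in NEJ146, 131 against 109.8 in NEJ634, 169 against 158 in NEJ687 and 80.02 against 79.4 in NEJ723. The stromal and endothelial lists were thus higher in the pericentral zone of all 4 tissues and the neutrophil list in 3, and the bile duct and erythroid lists ran in different directions. The part of any of these in the result was not tested. The pattern rested on the pericentral genes of the index: with periportal genes alone, none of the 9 targets passed, where 153 of 13787 genes were higher and 381 lower, and the log2 fold changes of Nkd1 and Notum were -0.0919 and -0.0756. Without the tissue term none passed either, but there the median log2 fold change of the 9 was 1.596, against 0.125 with periportal genes alone.

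**Figure D3:**
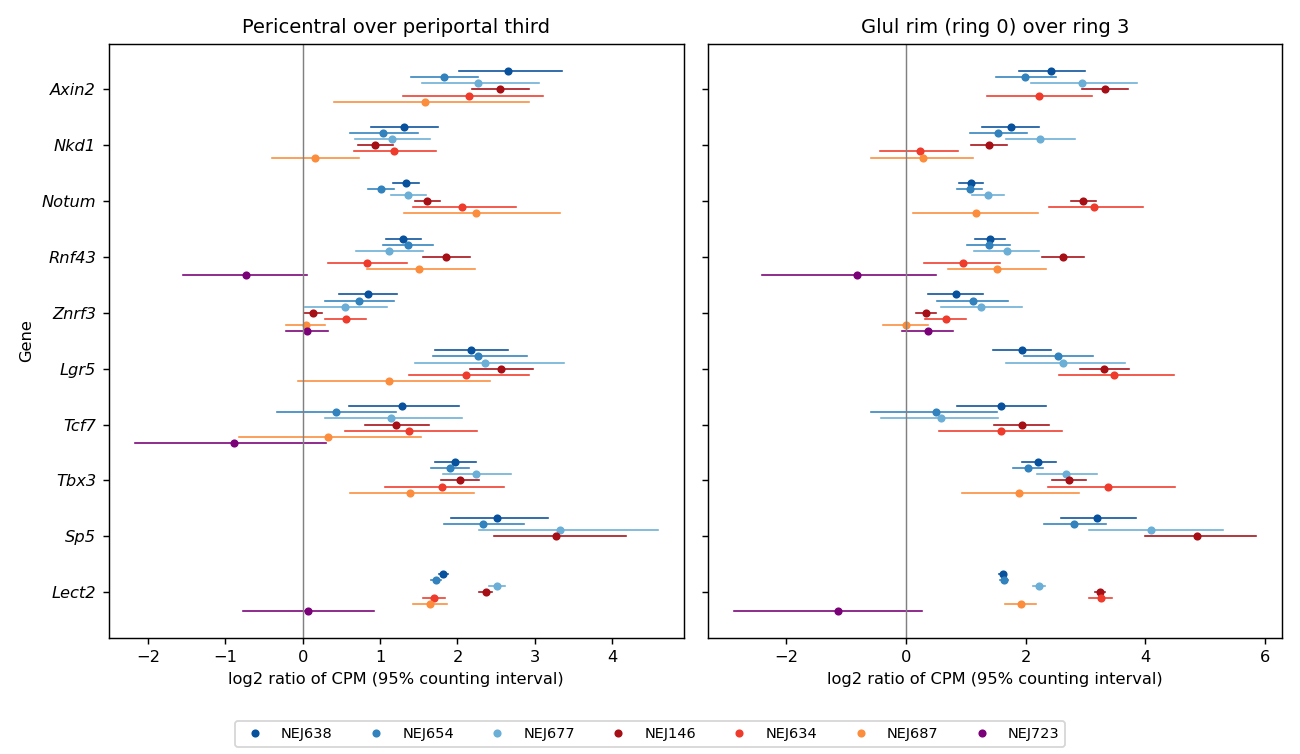
Log2 ratio of CPM, with 95% counting intervals, between the pericentral and periportal zones (left) and between the Glul rim and ring 3 (right), for each gene and tissue with 20 or more UMIs in the zones compared. Axin2, Tbx3 and Sp5 lie to the right of 0 wherever drawn, and the NEJ723 points of Rnf43 lie left of it in both panels.

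Another way to place the targets used space and 1 gene, Glul, which is itself held by the pathway. Around central veins Glul marks a narrow rim of hepatocytes, so the 10% of spots with the most Glul were taken as the rim (ring 0), spots 1 and 2 steps away as rings 1 and 2, and the rest as ring 3. Beyond the rim itself, Glul went from 271 CPM in ring 1 to 161 in ring 3 in NEJ638, from 514 to 290 in NEJ654 and from 278 to 155 in NEJ677. It went from 80.9 to 54.9 CPM in NEJ634, from 93.9 to 84.6 in NEJ687 and, against the others, from 25.4 to 30.0 in NEJ723. In NEJ638, NEJ654 and NEJ677 all 10 targets rose in the rim against ring 3 (edgeR, adjusted p under 0.05), where 9.14% of 12724 genes were higher and 9.1% lower. Sp5 again led with a log2 fold change of 3.10 ± 0.18 (SE; adjusted p = 2.23e-12, edgeR). Its rim and ring 3 levels were 19.1 and 2.09 CPM in NEJ638, 24.4 and 3.47 in NEJ654, and 13.9 and 0.81 in NEJ677. Axin2, Lgr5 and Tbx3 followed with log2 fold changes of 2.29, 2.21 and 2.15. Notum was among the shallow ones, at 1.101 ± 0.0743 (SE; adjusted p = 2.46e-11, edgeR), with 67.2 against 31.5 CPM in NEJ638. Stromal markers were also higher in the rim than in ring 3, at 717 against 586 CPM in NEJ638, 470.4 against 278 in NEJ654 and 336 against 224 in NEJ677. Bile duct markers were lower, at 34.2 against 259, 26.5 against 134 and 22.4 against 158 CPM. The part of these lists was not tested.

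In NEJ146, NEJ634, NEJ687 and NEJ723, 7 of the 9 targets tested rose in the rim: Axin2, Notum, Rnf43, Lgr5, Tcf7, Tbx3 and Lect2, with 2.09% of 13898 genes higher and 0.935% lower. The log2 fold changes were 3.22 ± 0.23 for Lgr5 (SE; adjusted p = 5.66e-06, edgeR), 2.99 ± 0.28 for Axin2 (adjusted p = 3.13e-05), 2.85 ± 0.25 for Lect2 (adjusted p = 1.8e-05) and 2.80 ± 0.23 for Notum (adjusted p = 9.57e-06). Tbx3, Tcf7 and Rnf43 had 2.66, 1.66 and 1.64, with adjusted p of 5.04e-05, 0.00184 and 0.0154 in edgeR. Nkd1 (0.89; adjusted p = 0.077) and Znrf3 (0.35; adjusted p = 0.0896) did not pass in edgeR. For Lect2 the rim and ring 3 levels were 114 and 12.04 CPM in NEJ146, 149.7 and 15.7 in NEJ634, 60.3 and 15.98 in NEJ687, and 1.36 and 3 in NEJ723. For Notum they were 17.4 and 2.23 CPM in NEJ146, 9.46 and 1.07 in NEJ634, and 3.07 and 1.36 in NEJ687. NEJ146 and NEJ634 therefore had steeper Lect2 and Notum ratios than NEJ638, NEJ654 and NEJ677, where the Notum ratio was 2.09 to 2.59 and the Lect2 ratio 3.07 to 4.70. Whether the gradients of the 2 sets of tissues differ was not tested, since the labels do not divide them. In NEJ146 Sp5 had 104 UMIs in the rim and 12 in ring 3, a ratio of 29.1 (15.9 to 58.0). In NEJ723 Lect2 had 5 and 26 UMIs in the rim and ring 3, a ratio of 0.453 (0.136 to 1.20). Rnf43 had 6 and 25 there, a ratio of 0.565 (0.190 to 1.41), and Tcf7 5 and 9. Axin2, Lgr5, Notum and Tbx3 had 0 to 2 UMIs in each. For these genes the rise thus rests on NEJ146, NEJ634 and NEJ687.

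Rim spots of these tissues kept tumour markers, at 2406 CPM against 2320 in ring 3 for NEJ146, 3819 against 5750 for NEJ634, 4943 against 4287 for NEJ687 and 3725 against 3814 for NEJ723. Endothelial markers were at 143 against 116 CPM in NEJ146, 153 against 86.2 in NEJ634, 176 against 153 in NEJ687 and 91.8 against 78.2 in NEJ723. Other lists differed as well. Erythroid markers were at 6510 against 14618 CPM in NEJ146, 1682 against 384 in NEJ634 and 4755 against 11923 in NEJ687. Bile duct markers were at 80.8 against 101 CPM in NEJ146, 246 against 635 in NEJ634, 28.2 against 114 in NEJ687 and 110 against 118.5 in NEJ723, lower in the rim of each. Stromal markers were at 602 against 348 CPM in NEJ146, 842 against 1302 in NEJ634 and 404 against 309 in NEJ687. The part of these lists was not tested. Leaving NEJ146 out, 3 targets (Notum, Lgr5 and Lect2) still passed and 24 genes did in all. Without NEJ687 Rnf43 lost its call.

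**Figure D4:**
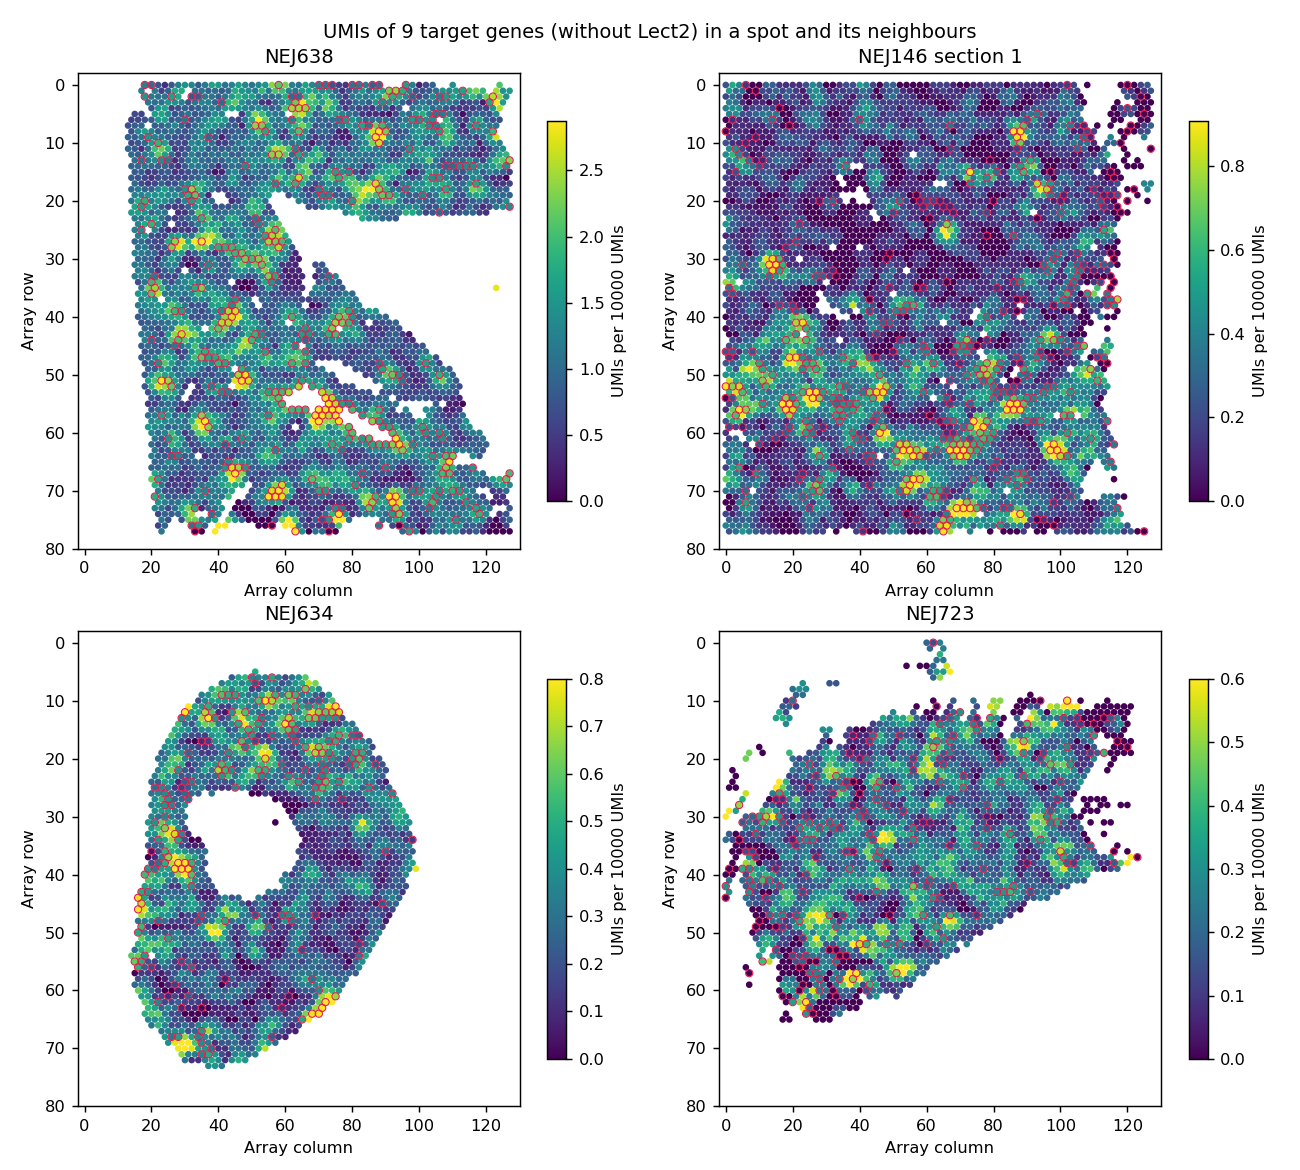
Array positions of tissue spots in 4 sections, coloured by the UMIs per 10000 UMIs of the 9 targets other than Lect2 in a spot and its neighbours, with Glul rim spots circled in red. Many bright patches hold clusters of circles in NEJ638, in the lower part of NEJ146 section 1 and in the upper part and on the left side of NEJ634, and circles in NEJ723 are scattered or lie at the tissue edge. Colour scales differ between panels.

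The other genes of the pathway were followed in the same fits, over a list of 81 genes of which 48 were tested in NEJ638, NEJ654 and NEJ677 and 55 in the other tissues. Among ligands and R-spondins, Wnt2, Wnt9b and Rspo3 rose in all 4 fits, and no other ligand of the 7 or 6 tested was called. In the rim of NEJ638, NEJ654 and NEJ677 Wnt2 was at 15.4, 15.9 and 19.2 CPM against 4.03, 5.05 and 4.23 in ring 3, with a log2 fold change of 1.85 (adjusted p = 1.75e-10, edgeR). Rspo3 was at 13.6, 22.1 and 19.2 CPM against 5.18, 3.99 and 2.52, with a log2 fold change of 2.11 (adjusted p = 5.19e-09, edgeR). Wnt9b was at 4.07, 2.79 and 7.32 CPM against 0.648, 0.603 and 0.54 (log2 fold change 2.85; adjusted p = 3.04e-07, edgeR). These are the ligands known from the central vein.

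In the rim fit of the other tissues the same ligands rose. Rspo3 was at 10.7 against 1.14 CPM in NEJ146, 6.89 against 0.64 in NEJ634 and 6.33 against 2.20 in NEJ687 (log2 fold change 2.86 ± 0.25, SE; adjusted p = 1.8e-05, edgeR). Wnt9b was at 6.79 against 0.378 CPM in NEJ146, 1.60 against 0.267 in NEJ634 and 4.16 against 0.909 in NEJ687 (3.31 ± 0.45; adjusted p = 0.00135, edgeR). Wnt2 was at 6.71 against 1.36, 5.29 against 0.48 and 4.88 against 1.06 CPM in NEJ146, NEJ634 and NEJ687 (2.38 ± 0.26; adjusted p = 0.00012, edgeR). In NEJ723, which is in the fit, all 3 ligands were below 1 CPM in the rim and in ring 3, from too few UMIs for a difference to be read. Over whole tissues Wnt2 was at 6.60 to 7.65 CPM in NEJ638, NEJ654 and NEJ677 and at 0.412 to 2.56 in the others, whereas Wnt4 ran the other way, at 1.20 to 3.81 and 11.9 to 38.0 CPM.

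Few receptors and genes of the signal core were called. Of 9 receptors tested in NEJ638, NEJ654 and NEJ677, Lrp6 and Lgr4 were lower in the pericentral zone, by log2 fold changes of -0.21 and -0.25 (adjusted p = 0.0149 and 0.00596, edgeR), and of 12 tested in the other tissues Fzd2 was higher (1.002; adjusted p = 0.0468). Of 15 core genes, Bcl9l, a coactivator of beta-catenin, was higher (0.41; adjusted p = 0.00108, edgeR) and Tcf7l1, mostly a repressor, lower (-0.62; adjusted p = 0.00796) in the pericentral zone of the 3 tissues. Over all genes of that fit 10.9% were higher and 11.2% lower, so 1 of 15 in each direction was no more than the background. In the rim of the 3 tissues 2 of 9 receptors were lower and 0 higher, and 1 of 15 core genes was higher and 1 lower. Over all genes of the rim fit 9.14% were higher and 9.1% lower. In the zone fit of the other tissues 2.52% of all genes were higher. In the other tissues Tcf7l1 was lower in the rim (-0.32; adjusted p = 0.0398, edgeR), and no core gene was called between zones. Ctnnb1, which encodes beta-catenin itself, was not called in any fit, and its level was 128.4 to 158.2 CPM in NEJ638, NEJ654 and NEJ677 and 145.5 to 268 CPM in the others.

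Of the inhibitors, 3 were tested in NEJ638, NEJ654 and NEJ677 and 6 in the other tissues. Sfrp1, a decoy for Wnt ligands, was lower in the pericentral zone of NEJ638, NEJ654 and NEJ677 (log2 fold change -1.58 ± 0.38, SE; adjusted p = 0.00525, edgeR) and higher in that of the other tissues (1.15 ± 0.23; adjusted p = 0.0219, edgeR), a difference that was not itself tested. Wif1, another decoy, was too low to be tested in the 3 tissues and rose in the rim of the others (1.86 ± 0.35, SE; adjusted p = 0.0106, edgeR), from 2.72 to 28.7 CPM in NEJ634 and from 1.17 to 4.59 in NEJ146. In the pericentral zone of those tissues 4 of the 6 inhibitors tested were higher, where 2.52% of all genes were: Sfrp1, Nkd2 (1.30; adjusted p = 0.037, edgeR), Wif1 (1.08; adjusted p = 0.0264) and Dkk3 (0.57; adjusted p = 0.035). Dkk3 was also higher in the rim of NEJ638, NEJ654 and NEJ677 (0.88; adjusted p = 0.0229).

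Of the other known targets, 7 of 12 tested rose and 2 fell in the pericentral zone of NEJ638, NEJ654 and NEJ677. The risen ones were Rhbg, an ammonium transporter (log2 fold change 2.39), Slc13a3 (2.39), Tnfrsf19 (2.34), Gulo (1.90), Rgn (1.38), Cyp27a1 (0.85) and Bambi (0.56), with adjusted p from 9.43e-13 to 0.000942 in edgeR. Sox9, which marks bile duct cells, and Cd44 fell by 2.07 and 0.78 on the log2 scale (adjusted p = 3.37e-06 and 0.000148, edgeR). Bile duct markers as a list (Krt19, Krt7, Sox9, Spp1 and Epcam) went from 141 to 291 CPM periportal to 22.5 to 43.7 pericentral in these tissues. In the other tissues 8 of 14 rose between zones: Rhbg (2.75), Gulo (1.96), Ephb3 (1.12), Ephb2 (0.86), Tnfrsf19 (0.82), Ccnd1 (0.55), Rgn (0.36) and Cyp27a1 (0.27), with adjusted p from 0.000469 to 0.0492 in edgeR. Ccnd1, the cell cycle gene for cyclin D1, differed in direction between the sets in the rim fits, at -0.77 ± 0.09 in NEJ638, NEJ654 and NEJ677 (SE; adjusted p = 7.91e-07, edgeR) and 0.80 ± 0.15 in the others (adjusted p = 0.00935), with the difference not tested. Over the whole list 11 of 48 genes tested rose and 6 fell between the zones of NEJ638, NEJ654 and NEJ677, where 10.9% of all genes were higher and 11.2% lower, so the share that fell was near the background. In the other tissues 16 of 55 rose, where 2.52% of all genes were higher. In the rim of NEJ638, NEJ654 and NEJ677 12 of 48 rose and 7 fell, where 9.14% of all genes were higher and 9.1% lower. In the rim of the other tissues 10 of 55 rose and 1 fell, where 2.09% were higher and 0.935% lower.

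**Figure D5:**
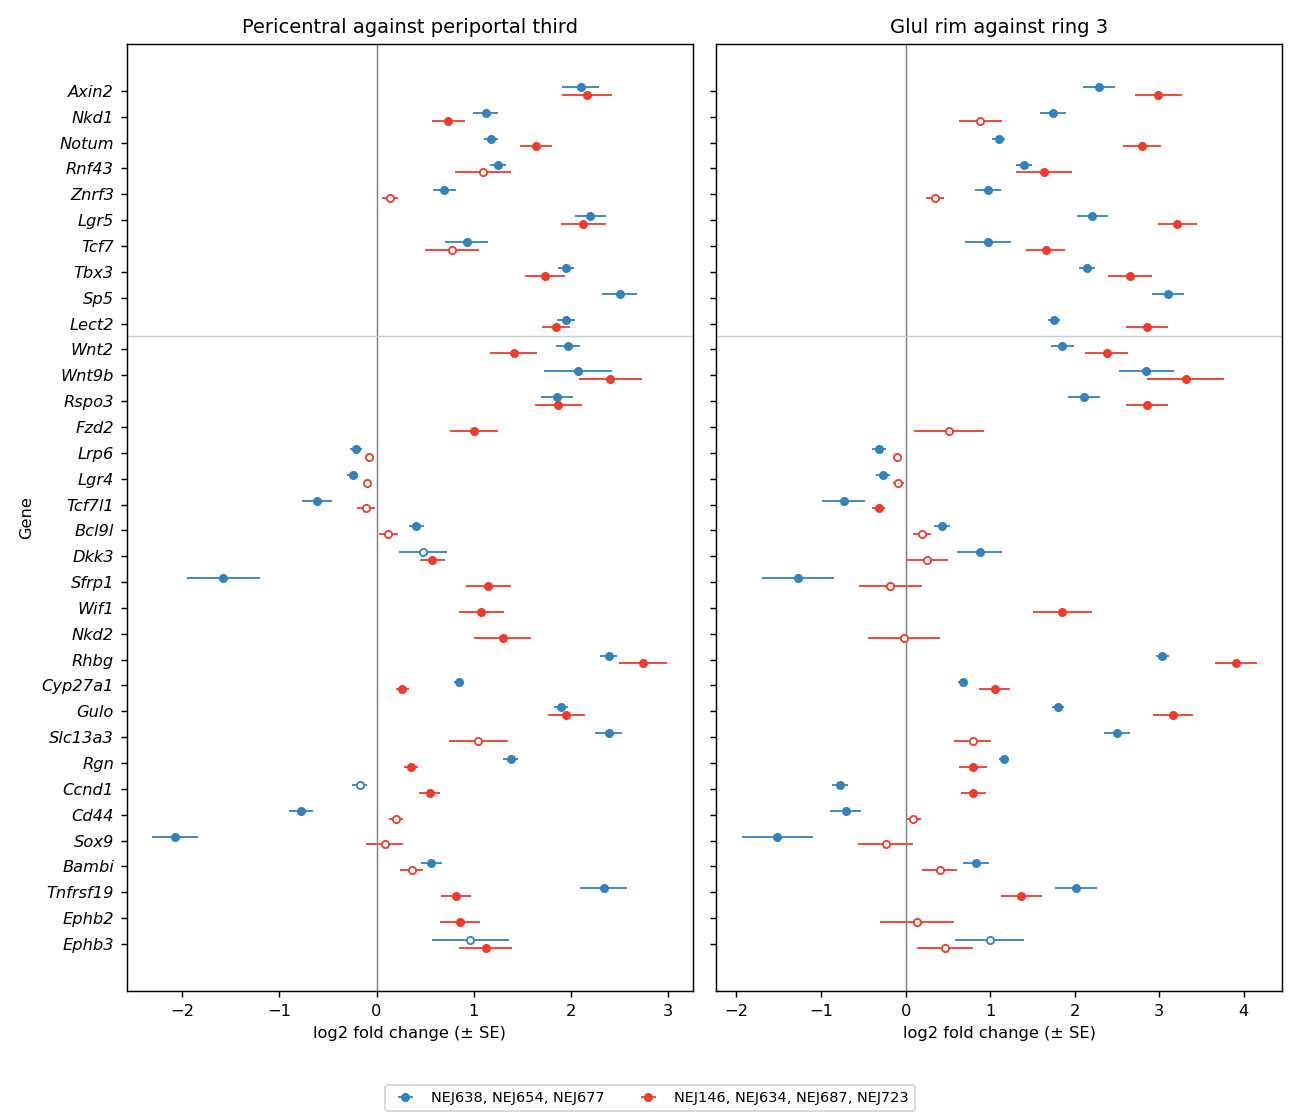
Log2 fold changes ± SE from the edgeR fits for the 10 targets (above the grey line) and for every other pathway gene called in any fit (below it), blue for NEJ638, NEJ654 and NEJ677 and red for NEJ146, NEJ634, NEJ687 and NEJ723. Filled points passed an adjusted p of 0.05, and Wnt2, Wnt9b and Rspo3 are filled and to the right of 0 in all 4 fits.

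Patterns within tumours were also described without any marker. A neighbour ratio was taken as the CPM of a gene in spots adjacent to a spot with a UMI of it, over its CPM in all tissue spots, and set beside the median of genes with a similar number of UMIs in that section. Over 95 pairs of gene and section with 10 or more UMIs, 77 ratios lay above that median, and the 4 adjacent sections of NEJ146 are counted singly in these numbers. The 77 include Sp5 in NEJ634 and Notum in NEJ723, where that median was 0 and any ratio above 0 exceeds it. They also include Lect2 in NEJ634 and NEJ677, which is not read below. In the sections of NEJ146, NEJ634, NEJ687 and NEJ723 Axin2 had ratios of 1.30 to 4.07 where medians were 1.01 to 1.24, Lgr5 1.40 to 2.85 where they were 1.004 to 1.29, and Tbx3 1.52 to 2.06 where they were 1.07 to 1.16. Each of these 3 genes was above in 6 of 6 sections, which come from 3 tissues. Nkd1, Notum and Lect2 were above in 7 of 7 sections, Sp5 in 5 of 5 and Rnf43 in 5 of 7, with the limits just given. Znrf3, at 0.967 to 1.05, was above in 3 of 7 sections and Tcf7, at 0 to 1.16, in 0 of 7. By this measure Axin2, Lgr5 and Tbx3 UMIs lay closer together than those of genes with like counts, and Tcf7 UMIs did not, in these sections. In NEJ638, NEJ654 and NEJ677 Tcf7 was above in 3 of 3 sections, at 1.275 to 1.448 where medians were 0.993 to 1.006. Lect2 had ratios of 1.15 to 2.29 in the sections of NEJ146, NEJ687 and NEJ723. In NEJ638, NEJ654, NEJ677 and NEJ634 it had more UMIs than there were tissue spots, and the ratio, near 1 there as for genes with like counts, was not read.

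Regional differences were wide as well in NEJ146 and NEJ634. On a fixed grid of 4 by 4 tiles, Lect2 ran from 8.52 to 74.1 CPM across NEJ146 section 1 (median 25.6) and from 14.1 to 97.9 across NEJ634 (median 49.3), against 305.5 to 524 in NEJ638 (median 406). Notum ran from 0.765 to 12.5 CPM in NEJ146 section 1 and from 0.719 to 7.20 in NEJ634, against 26.9 to 48.2 in NEJ638. In NEJ146 sections 2, 3 and 4 the highest Notum tiles were at 15.4, 12.8 and 10.99 CPM and the lowest at 1.45, 1.103 and 1.06. In NEJ687 Lect2 ran from 6.43 to 31.4 CPM (median 22.3). Znrf3 stayed between 6.72 and 13.3 CPM in NEJ146 section 1 and between 14.2 and 20.7 in NEJ723. On a 3 by 3 grid Notum ran from 1.68 to 10.7 CPM in NEJ146 section 1, 6.37 times against 16.4 times on the finer grid, and from 2.55 to 9.74 in section 4, 3.83 times against 10.35 times. On that grid Notum in NEJ638 ran from 34.4 to 46.6 CPM, and Lect2 in NEJ687 ran from 13.8 to 27.6 CPM. The size of the ratio thus moved with the tile size. On both grids the tiles of NEJ146 sections 1 and 4 and of NEJ634 spanned a wider ratio for Lect2 and Notum than those of NEJ638. A tile holds few UMIs of the lower genes, and the lowest Notum tile of NEJ146 section 1 also rests on few UMIs. Its ratio of 16.4 is thus uncertain.

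Genes with the most similar pattern were sought over 35 points, the 5 index bins of 7 tissues, among 9903 genes that averaged 5 CPM or more (Pearson r of log2(CPM + 1)). The points share libraries, so r is a description. Lect2 was closest to Rgn (0.983), Gulo (0.972) and the index gene Cyp1a2 (0.966), and Notum to the transporter gene Slco1b2 (0.987), Gulo (0.985) and Pon1 (0.979). Tbx3 was closest to Lhpp (0.976), Rhbg (0.975) and Rnase4 (0.97), and Axin2 to Tbx3 (0.944), Lhpp (0.939) and Ahr (0.932). Lgr5 was closest to Slc19a2 (0.946), Ahr (0.939) and Tbx3 (0.91), Nkd1 to Lect2 (0.927), Lhpp (0.92) and Slc19a2 (0.916), and Rnf43 to Ugt2b34 (0.951), Pcp4l1 (0.933) and Bdh1 (0.932). The nearest genes to Znrf3 were the imprinted genes Igf2r (0.955) and Meg3 (0.95), with Smpd2 (0.954) between them. Members were among the 3 nearest genes of Axin2, Lgr5 and Nkd1, and genes of the pathway list (Rgn, Gulo and Rhbg) among those of Lect2, Notum and Tbx3. Neither kind was among those of Rnf43 or Znrf3. Only Notum, Rnf43, Znrf3, Tbx3 and Lect2 averaged 5 CPM or more, so no other member could be found among the nearest genes. Sp5 and Tcf7 had too few UMIs for nearest genes to be sought.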

How the data were processed

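The authors deposited unfiltered matrices of raw UMI counts, made with Space Ranger 1.3 against mm10 per the labels for 6 tissues and Cell Ranger 6.0 for NEJ146, whose genome build is not given in the sources used here. Spots count as tissue by the deposited call or, in NEJ146, at 8000 UMIs or more, with array positions taken from shared barcodes. Counts were summed over tissue spots, which held 39280329 to 117077925 UMIs a section, and given as CPM of the UMIs summed. All spots together held 61627315 to 117556249 UMIs a section. Zones and rings used spots with 500 UMIs or more. Sums per tissue and zone were tested with edgeR 4.0.16 (TMM, filterByExpr, quasi-likelihood, tissue as a term, Benjamini-Hochberg), which was tested on simulated data; the tissue is the replicate, and spots are not. The alternatives were DESeq2 1.42.0, other filters, indices and rim widths, and leaving out each tissue. No doublet caller was run. Members and gene lists were chosen with earlier results of these data known. The text names all 10 members, every ligand called, every receptor and inhibitor called between zones, and up to 20 list genes a fit. Gene positions are GENCODE M21 (GRCm38). Gm45496, 1110028F11Rik and Gm26551 overlap Nkd1, Rnf43 and Tcf7 on the same strand. Hence their counts are uncertain. Where labels do not say that sections are separate animals, p-values measure how the zone differences spread over the sums per tissue and zone or ring. The middle zone and rings 1 and 2 were also in the fits and added residual degrees of freedom. These were 4 between zones and 6 in the rim for NEJ638, NEJ654 and NEJ677, and 6 and 9 for the other tissues. A small p is thus not a measure of the spread over tissues alone. Differences in level between tissues are taken up by the tissue term.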

Additional observations from a re-analysis of the deposited data

Results flagged for a closer look

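Spots outside the tissue call, which no comparison used, held UMIs of every member in the 6 tissues with such a call: 25389 of Lect2, 2704 of Notum, 1405 of Znrf3, 1362 of Tbx3, 1137 of Rnf43, 592 of Nkd1, 496 of Axin2, 378 of Lgr5, 288 of Tcf7 and 273 of Sp5, all above the 3 counts that a count of 0 allows. The median ratio of CPM off tissue to CPM on tissue was 0.941 for Lect2, 0.919 for Notum, 1.05 for Axin2 and 0.701 for Sp5. Among the 4 NEJ146 sections no member had a section far from the others.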

How the results depend on the processing

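For the 10 targets, 434 fold changes were recomputed under the alternatives: 382 kept direction and call, 43 lost the call, 7 gained it and 2 changed sign. In NEJ638, NEJ654 and NEJ677 no target changed sign, and with the tissue term in the fit 4 of 180 recomputed fold changes lost the call, all of them Tcf7. Leaving out the tissue term left 81 genes called between zones there (from 2819) with 1 target, and 161 in the rim (from 2321) with 5 targets. In the other tissues it left 0 and 1 genes and 0 targets, where 33 and 135 genes had an unadjusted p under 0.05. The targets' median log2 fold changes without that term were 1.569 and 1.596 between zones and 1.74 and 2.509 in the rim, close to those with it. DESeq2 called 1494 genes between zones of the 3 tissues, and leaving out each tissue gave 1621 to 2447 between zones and 1502 to 1883 in the rim. In NEJ146, NEJ634, NEJ687 and NEJ723 the 560 genes called between zones became 1030 without the filter (8 targets, Sp5 and Rnf43 added), 1514 with outer bins of 5 and 44 to 499 when each tissue was left out (328 without NEJ146, 44 without NEJ634 and 232 without NEJ687, with 5 to 8 targets). With periportal genes alone 0 targets passed, and Nkd1 and Notum had log2 fold changes of -0.0919 and -0.0756. In the rim, leaving out each tissue gave 24 to 626 genes and 3 to 8 targets, the fewest without NEJ146. With a mean of at least 5 CPM, 4 of 5 targets had the 3 tissues highest, and under the other alternatives 8 did. Of 190 recomputed CPM values 8 moved beyond their range, all without mitochondrial and haemoglobin UMIs. For genes at a few UMIs, such as Sp5 in NEJ634, NEJ687 and NEJ723, depth limits any statement. The reported fits are paired, since the tissue term sets the zones of a tissue against each other, and the fits without that term are the unpaired ones.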
